A study of Mus musculus with 20 samples.

Results

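The genes described here are 38 genes of glucose uptake, glycolysis, lactate, pyruvate dehydrogenase control and the hypoxia response, taken by gene symbol from 49568 symbols in the deposited count tables of mouse haematopoietic stem and progenitor cells. All 38 symbols were found in the tables of both populations and all are annotated as protein coding. Bulk RNA sequencing was done on 4 groups of 5 libraries each, sorted from the bone marrow of untreated mice aged 8 to 12 weeks. These were multipotent progenitors (MPP) from mice lacking the aryl hydrocarbon receptor (Ahr-KO MPP), MPP from wild-type mice (WT MPP), long-term haematopoietic stem cells from Ahr-KO mice (Ahr-KO LT-HSC) and the same stem cells from wild-type mice (WT LT-HSC). The strain label is C57BL/6 for all 20 libraries. The series asks how the receptor bears on Aurora A kinase and the passage from G2 into mitosis. The Ahr-KO allele and the surface markers of the sort are not given in the labels, and nothing in them says that the libraries of a group come from separate animals, so the p-values measure the spread between these samples, which may be partly technical.

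Glycolysis splits glucose into pyruvate, which is either reduced to lactate in the cytosol or passed by the pyruvate dehydrogenase complex into the mitochondrial citrate cycle. Pyruvate dehydrogenase kinases switch that complex off and so hold pyruvate back from the mitochondria. Hypoxia-inducible factors (HIF) are pairs of a regulated alpha subunit and the shared partner ARNT, and they switch on many of these genes when oxygen is low. ARNT is also the partner of the aryl hydrocarbon receptor. Long-term stem cells are known for dividing rarely and for relying on glycolysis in the bone marrow, with pyruvate dehydrogenase kinases among the enzymes reported to matter for them, while MPP divide more often.

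The promoters are shown because HIF and the aryl hydrocarbon receptor share ARNT and read short DNA words that differ by a single base. Promoter windows of 300 bases, 250 before and 50 after each transcript start, were taken from RefSeq on mouse build GRCm38.p6. They covered 36 of the 38 members, and Slc2a3 and Epas1 had no entry. The HIF word ACGTG, searched on both strands, was found in the promoters of 24 of the 36 members (66.7%), against 21.8% of 27025 genes with an entry. The core of the receptor's word, GCGTG, was likewise found in 24 of the 36 members (66.7%), against 35.2% of all genes, and the longer word TNGCGTG in 4 members (11.1%), against 5.84% of all genes. Member promoters were also rich in CpG, with a median of 18 CpG per window over 53 member windows and 7 over all 32851 windows, and each of these words holds a CpG. CACGTG, which reads the same on both strands and therefore counts on each strand as ACGTG, was present in the windows of 8 of the 36 members (22.2%), against 8.09% of all genes. These shares count a gene if any of its windows held the word. By window, ACGTG was in 52.8% of the 53 member windows, against 19.6% of all 32851. GCGTG was in 56.6% of member windows, against 32.4%, and TNGCGTG in 7.55%, against 5.07%. A match is a description of these letters and not a binding site, and a window without a match says nothing about the factor. In the sequences below, printed from 5′ to 3′ in the direction of transcription, capitals mark ACGTG or GCGTG or their reverse complements. Hk3 (chromosome 13), Pgam1 (chromosome 19) and Egln3 (chromosome 12) are the members higher in MPP than in LT-HSC in both genotypes. Slc2a1 (chromosome 4) and Pdk4 (chromosome 6) are examples of those lower in both. Ldha (chromosome 7), which has the most matches to ACGTG among the windows shown, passed the test in neither genotype.
Hk3: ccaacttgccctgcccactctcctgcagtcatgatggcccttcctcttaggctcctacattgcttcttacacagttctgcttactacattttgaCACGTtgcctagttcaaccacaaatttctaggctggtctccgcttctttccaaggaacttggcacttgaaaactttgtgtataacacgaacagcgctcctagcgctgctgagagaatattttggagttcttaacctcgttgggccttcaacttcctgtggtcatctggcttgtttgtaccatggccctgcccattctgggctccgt
Pgam1: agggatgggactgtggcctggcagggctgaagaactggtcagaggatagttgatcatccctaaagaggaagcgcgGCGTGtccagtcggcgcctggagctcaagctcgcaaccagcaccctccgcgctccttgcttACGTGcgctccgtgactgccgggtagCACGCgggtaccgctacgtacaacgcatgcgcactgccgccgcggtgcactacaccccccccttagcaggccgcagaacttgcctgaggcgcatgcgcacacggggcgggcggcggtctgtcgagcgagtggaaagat
Egln3: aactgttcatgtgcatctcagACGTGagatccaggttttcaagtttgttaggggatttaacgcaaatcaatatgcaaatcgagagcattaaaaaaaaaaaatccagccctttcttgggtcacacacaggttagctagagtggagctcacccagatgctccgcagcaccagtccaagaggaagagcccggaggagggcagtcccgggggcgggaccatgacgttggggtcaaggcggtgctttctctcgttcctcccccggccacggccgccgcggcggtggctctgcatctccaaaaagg
Slc2a1: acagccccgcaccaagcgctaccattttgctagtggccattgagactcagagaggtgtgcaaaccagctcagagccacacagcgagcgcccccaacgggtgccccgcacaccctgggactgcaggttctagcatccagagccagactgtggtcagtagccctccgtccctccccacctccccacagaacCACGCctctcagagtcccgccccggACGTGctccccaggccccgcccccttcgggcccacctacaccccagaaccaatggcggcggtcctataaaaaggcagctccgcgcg
Pdk4: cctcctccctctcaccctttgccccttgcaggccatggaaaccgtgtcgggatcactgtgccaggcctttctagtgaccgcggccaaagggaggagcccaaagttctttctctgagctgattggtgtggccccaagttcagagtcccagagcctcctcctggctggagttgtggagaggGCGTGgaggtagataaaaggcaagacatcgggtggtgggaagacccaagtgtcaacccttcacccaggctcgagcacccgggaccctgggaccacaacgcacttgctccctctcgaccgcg
Ldha: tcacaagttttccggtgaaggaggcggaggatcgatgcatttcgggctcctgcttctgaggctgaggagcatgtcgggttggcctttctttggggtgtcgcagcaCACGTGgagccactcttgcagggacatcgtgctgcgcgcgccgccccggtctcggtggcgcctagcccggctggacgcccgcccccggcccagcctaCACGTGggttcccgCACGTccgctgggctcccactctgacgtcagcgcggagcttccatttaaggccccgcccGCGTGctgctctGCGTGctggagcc
The windows are chr13:55021336-55021635, minus strand, for Hk3, chr19:41911621-41911920, plus strand, for Pgam1, chr12:54203825-54204124, minus strand, for Egln3, chr4:119108495-119108794, plus strand, for Slc2a1, chr6:5496229-5496528, minus strand, for Pdk4, and chr7:46845554-46845853, plus strand, for Ldha. The Ldha window held 5 matches to ACGTG, counted over both strands, and 2 to GCGTG, while those of Hk3 and Egln3 held 1 match to ACGTG and none to GCGTG. Pdk4 had 1 match to GCGTG and none to ACGTG in this window. Pgam1 had 1 match to ACGTG and 2 to GCGTG, and Slc2a1 had 1 of each.

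Ahr transcripts were present in the Ahr-KO libraries, at 9.80 to 19.2 CPM (read counts scaled to a common library total) in Ahr-KO MPP, against 5.80 to 14.2 CPM in WT MPP, and 18.5 to 29.7 CPM in Ahr-KO LT-HSC, against 20.8 to 36.6 CPM in WT LT-HSC. The level of Ahr RNA therefore does not by itself check the genotype labels, and which exons an allele may lack was not analysed here. Libraries held between 13712668 and 21622653 counts. Of 12 LT-HSC markers, 11 were lower in MPP than in LT-HSC in each genotype, and of 10 MPP markers 9 were higher in Ahr-KO MPP and 10 in WT MPP. In bulk RNA, fewer cells of a type and less RNA per cell cannot be told apart. WT LT-HSC 1 stood apart from its group: its correlations with the other 4 libraries over log CPM lay between 0.903 and 0.909, its LT-HSC marker sum was 1344 CPM, against 2959 to 3241 CPM in the others, and it lay outside the range of the other 4 for 30 of the 38 members, 16 above and 14 below. Over all genes tested in LT-HSC it lay outside that range for 81.4%. Ahr-KO LT-HSC 2 and 3 held neutrophil marker sums of 3474 and 3629 CPM, against 138 to 536 CPM in the other 3 libraries of that group, and monocyte sums of 2749 and 3192 CPM. Their erythroid marker sums were 4874 and 5283 CPM, against 2216 to 2429 CPM in the other 3, and Ahr-KO LT-HSC 3 held a connective tissue and endothelium sum of 4171.5 CPM, against 127 to 188 CPM in the other 4. Neutrophil marker sums over 17 genes ran from 3252 to 12039 CPM in Ahr-KO MPP, 5997 to 9349 CPM in WT MPP, 138 to 3629 CPM in Ahr-KO LT-HSC and 94.4 to 1444.5 CPM in WT LT-HSC, and no marker was at 0 throughout a group. Of the 17 markers, 3 were called higher in MPP in Ahr-KO and 11 in WT.

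Per kilobase of exon, which allows levels of different genes to be set side by side, the most abundant member in all 4 groups was Ldha, the lactate dehydrogenase subunit that favours lactate formation. Its mean was 317 CPM per kb in Ahr-KO MPP, 310.3 in WT MPP, 357 in Ahr-KO LT-HSC and 328 in WT LT-HSC. Tpi1, Pkm, Eno1, Gapdh, Pgam1 and Aldoa, enzymes of the main trunk, held ranks between 2 and 8 in each group. At the other end stood Epas1, which encodes a HIF alpha subunit best known from endothelium, at 0.0599 CPM per kb in Ahr-KO MPP, 0.0438 in WT MPP, 0.215 in Ahr-KO LT-HSC and 0.220 in WT LT-HSC. Pdk4, a pyruvate dehydrogenase kinase induced by fasting in other tissues, was the lowest member in both MPP groups and ranked 37 in Ahr-KO LT-HSC and 35 in WT LT-HSC. Eno2, the neuronal enolase, and Pfkfb2, which makes and breaks the phosphofructokinase activator fructose bisphosphate, were also under 1 CPM per kb in all 4 groups. Hk3, a hexokinase known mainly from myeloid cells, changed its place most, ranking 9 in Ahr-KO MPP and 10 in WT MPP against 19 in Ahr-KO LT-HSC and 26 in WT LT-HSC. Most members kept similar ranks, and the order of neighbours whose library ranges overlap is not resolved by these data. Counts of close gene copies make the levels of 3 members uncertain. Counts of Eno1b were 49.3 to 53.8% of the Eno1 counts over the 20 libraries, those of Pgk1-rs7 were 64.0 to 67.7% of Pgk1, and those of Pgam1-ps2 were 34.3 to 37.1% of Pgam1. How reads shared by such copies were assigned is not given in the sources used here. In the annotation 20 of the 38 members also overlap another gene, 16 of them a gene on the opposite strand, and counting by strand is not stated, so reads of such pairs cannot be told apart.

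**Figure D1:**
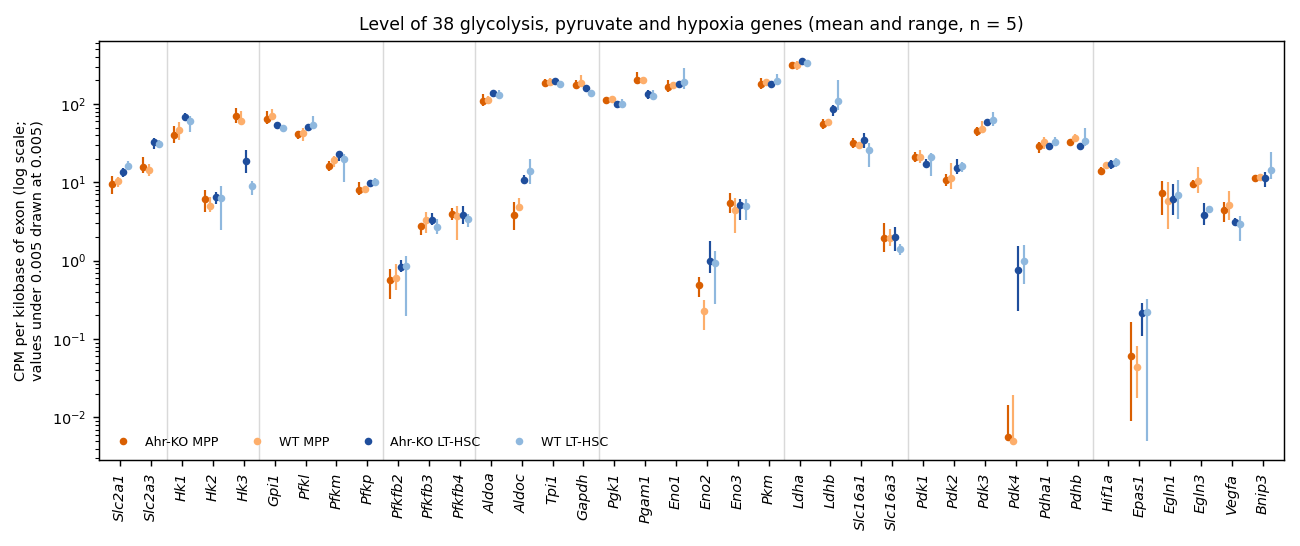
Level of each of the 38 members in CPM per kb of exon (log axis), ordered by role, with a point at the mean and a line over the range of the 5 libraries, and the 4 groups side by side from Ahr-KO MPP to WT LT-HSC. Ldha is highest in all groups, Pdk4 has the lowest means in both MPP groups, and values under 0.005 are drawn at 0.005.

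The largest differences among these genes were between populations. Relative to LT-HSC of the same genotype, MPP had less RNA of both glucose transporters, the aldolase Aldoc and the lactate dehydrogenase subunit Ldhb. The pyruvate dehydrogenase kinases Pdk2, Pdk3 and Pdk4 were called lower as well. Of these, Pdk2 lay near the threshold. Pdk4 passed the count filter only through LT-HSC, so the filter partly fixed its call, and the counts that follow include it. MPP had more RNA of the hexokinase Hk3, the phosphoglycerate mutase Pgam1 and the HIF hydroxylase Egln3. In Ahr-KO, 15 of the 38 members (39.5%) were called at an adjusted p under 0.05 in edgeR's quasi-likelihood test, against 23.2% of the 17416 genes tested. Of these, 3 were higher in MPP, against 12.5% of all genes, and 12 were lower, against 10.7%. In WT, 17 members (44.7%) were called, against 22.3% of all genes: 7 higher, against 11.0%, and 10 lower, against 11.3%. The median log2 fold change of MPP over LT-HSC was -0.13 over the members in each genotype, with medians of 0.01 over all genes. Members are well-expressed genes: with genes kept only at 5 CPM or more in 5 libraries, 15 of 35 members (42.9%) were called in each genotype, against 27.2% of all genes in Ahr-KO and 25.8% in WT.

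The members called in both genotypes number 10: 3 higher and 7 lower in MPP. Pdk4, among the lower ones, and Epas1, called in WT, passed the count filter through LT-HSC, where they are higher, and not through MPP, so the filter partly fixed their calls. The 10 members called in both genotypes make up 66.7% of the Ahr-KO calls and 58.8% of the WT calls. For all genes the shares were 62.8% of the Ahr-KO calls and 65.4% of the WT calls. Hk1, Pfkm, Pfkp, Aldoa and Hif1a were called in Ahr-KO alone, all lower in MPP. Gpi1, Gapdh, Pgk1 and Vegfa (higher in MPP) and Pfkl, Eno2 and Epas1 (lower in MPP) were called in WT alone. No member's population difference was called as differing between genotypes, so these lists do not show a genotype difference. In Ahr-KO all 5 MPP libraries lay above all 5 LT-HSC libraries for 4 members, against 11.1% of all genes, and below them for 10, against 10.4%, with 21.6% of all genes apart in either direction. In WT they lay above for 5 members, against 8.32% of all genes, and below for 6, against 8.09%, with 16.4% apart in either direction. Without Ahr-KO LT-HSC 2 and 3, 12 members were called in Ahr-KO, beside 18.9% of all genes, and 18 were called with WT LT-HSC 1 left out as well, beside 28.4%. With the 2 libraries out, the calls of Pfkp (-0.36 ± 0.13, adjusted p = 0.0561), Aldoa (-0.32 ± 0.11, adjusted p = 0.0517) and Hif1a (-0.30 ± 0.11, adjusted p = 0.0673) missed the threshold, and with all 3 out they passed it. Without WT LT-HSC 1, the WT calls came to 20, beside 29.9% of all genes: Pfkl and Pdk2 dropped out and Hk1, Hk2, Pfkp and Pfkfb2 (lower in MPP) and Pdhb (higher) joined. The populations stand in separate tables and the labels give no batch, so a difference in how the populations were handled and the population itself cannot be told apart.

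**Figure D2:**
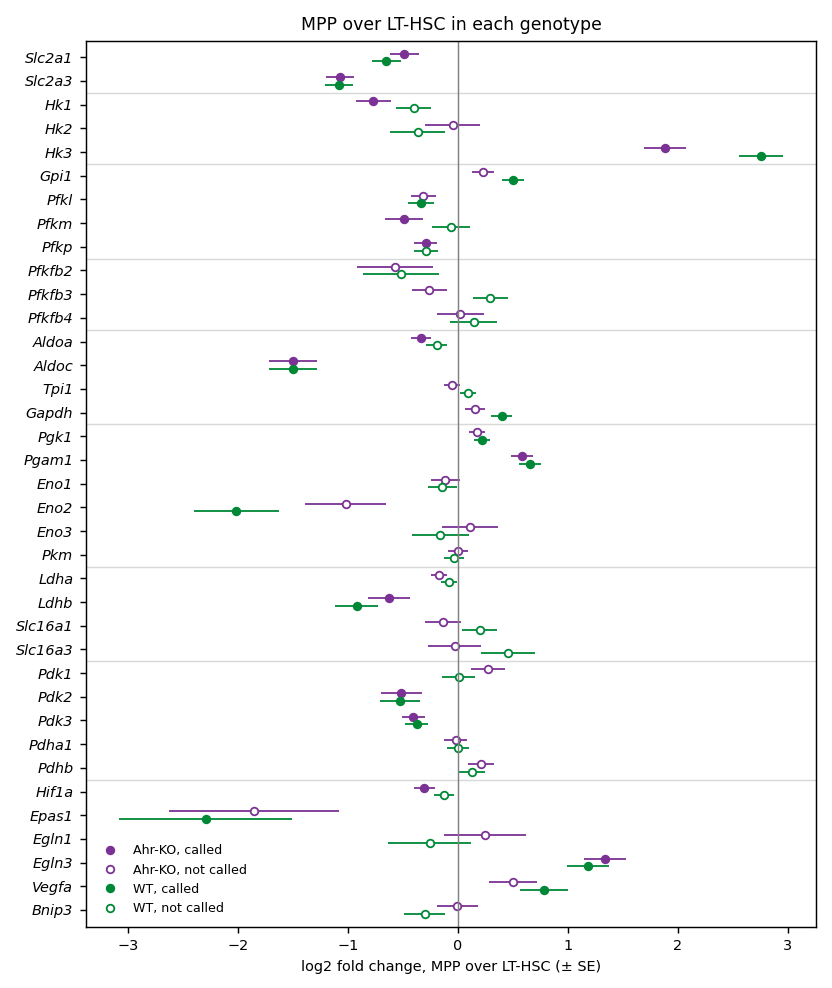
Log2 fold change of MPP over LT-HSC with its standard error for 37 members, ordered by role, in Ahr-KO and in WT; filled points are called at an adjusted p under 0.05, and Pdk4, with 3 reads in all MPP libraries, is left out. Hk3, Egln3 and Pgam1 lie to the right of 0 in both genotypes and Slc2a3, Aldoc and Ldhb to the left.

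Between Ahr-KO and WT cells of the same population, edgeR called none of these genes. In MPP, 0 of the 36 members tested were called, against 0.0311% of 16077 genes (0.0187% higher and 0.0124% lower), and 2 (5.56%) had an unadjusted p under 0.05, against 6.62% of all genes. DESeq2 and limma-voom called 0 members there. In LT-HSC, 0 of 38 were called, against 0.00622% of 16065 genes, and 5 (13.2%) had an unadjusted p under 0.05, against 8.85% of all genes. In LT-HSC other tools called more genes. DESeq2 called 1 of 38 members, Hk3, beside 149 of 16065 genes. With library weights, limma-voom called 4 of 38 members, beside 264 of 16065 genes: Hk3, Tpi1 and Gapdh higher and Pdk1 lower in Ahr-KO. Fitting all 20 libraries together called 1 member, Hk3, beside 14 of 17416 genes. In MPP the Ahr-KO group stood wholly above the WT group for Eno2, against 0.61% of all genes, and wholly below it for Hif1a, against 0.56%, or 1.17% in all. In LT-HSC it stood above for Hk3, Gapdh and Ldha, against 2.23% of all genes, and below for 0 members, against 1.41%, or 3.64% in all.

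The median log2 fold change of Ahr-KO over WT was -0.06 over the members in MPP and 0.00 in LT-HSC. Over all genes tested the medians were 0.01 in MPP and 0.00 in LT-HSC. In MPP 25 of 36 members had a negative estimate, against 49.1% of all genes, and 21 to 27 had one when single libraries were left out. In LT-HSC 19 of 38 had a negative estimate, against 49.9% of all genes. Without WT LT-HSC 1, the LT-HSC estimates of 8 of the 38 members changed sign: Egln1, Eno1, Eno2, Hk2, Pdk3, Pfkl, Pkm and Vegfa. The Ahr-KO effect in MPP minus that in LT-HSC was called for 0 of 38 members, against 0.0% of 17416 genes, and 2 members, Hk3 and Pfkfb3, had an unadjusted p under 0.05 (5.26%, against 6.46% of all genes). DESeq2 and limma-voom also called 0 members for that difference. Pdk4 and Epas1 did not reach the count filter in MPP and were not tested there.

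**Figure D3:**
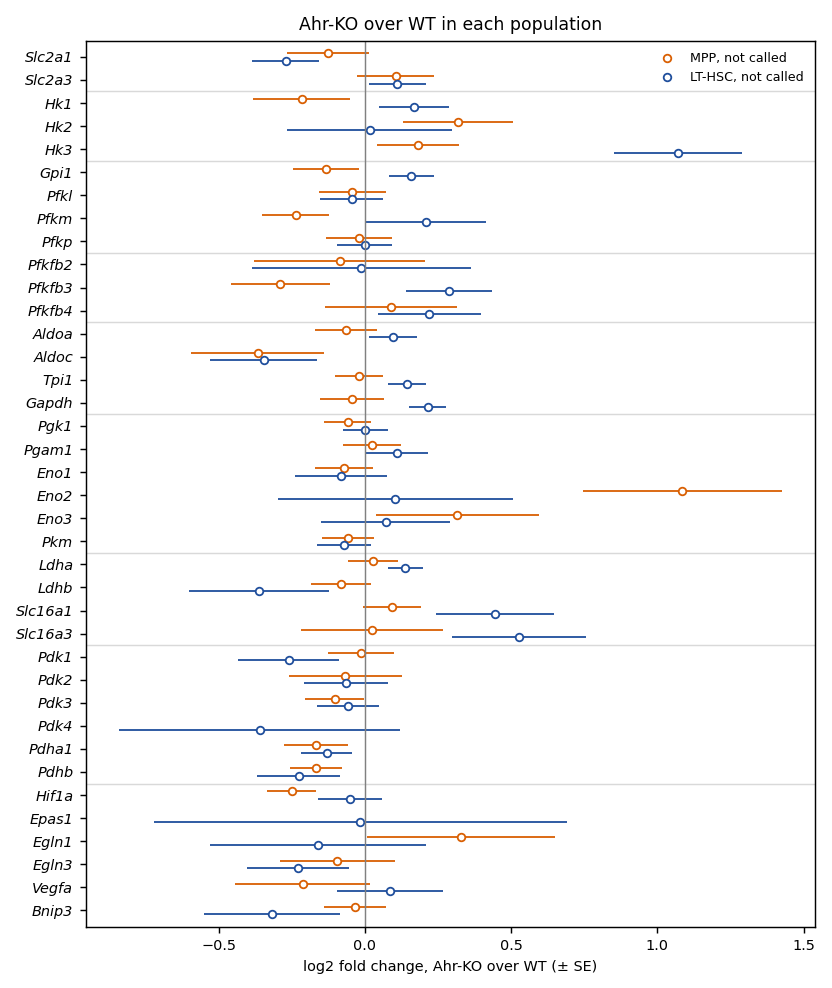
Log2 fold change of Ahr-KO over WT with its standard error for the members, ordered by role, in MPP and in LT-HSC; no member reached an adjusted p under 0.05. Eno2 in MPP and Hk3 in LT-HSC have the largest estimates, at 1.09 and 1.07.

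Glucose enters blood cells through the carriers encoded by Slc2a1 (GLUT1) and Slc2a3 (GLUT3), and both were lower in MPP in both genotypes. Slc2a3 had 103, 96.1, 116, 99.9 and 150.3 CPM in Ahr-KO MPP, against 249.8, 194, 234, 239 and 270.2 CPM in Ahr-KO LT-HSC. In WT it had 117, 125, 100.1, 94.8 and 88.03 CPM in WT MPP, against 220.3, 253, 211, 208 and 218 CPM in WT LT-HSC. Every MPP library lay below every LT-HSC library of its genotype. The log2 fold change of MPP over LT-HSC was -1.07 ± 0.13 (SE) in Ahr-KO, adjusted p = 5.02e-06, and -1.08 ± 0.13 in WT, adjusted p = 4.85e-06. Slc2a1, the basal carrier of many cells and the main one of red cell precursors, had 32.6, 24.8, 32.7, 33.9 and 42.6 CPM in Ahr-KO MPP, against 53.00, 47.8, 41.2, 50.01 and 41.9 CPM in Ahr-KO LT-HSC. In WT its values were 36.02, 34.2, 30.2, 41.3 and 39.5 CPM in WT MPP, against 50.8, 65.2, 55.1, 50.3 and 63.8 CPM in WT LT-HSC. The WT groups were apart, while in Ahr-KO the highest MPP library lay above the lowest LT-HSC libraries. Its log2 fold change was -0.49 ± 0.13 in Ahr-KO, adjusted p = 0.0105, and -0.65 ± 0.13 in WT, adjusted p = 0.00122. Median erythroid marker sums over 14 genes were 1411 CPM in Ahr-KO MPP, against 2429 CPM in Ahr-KO LT-HSC, and 1646 CPM in WT MPP, against 2442 CPM in WT LT-HSC. Of the 14 markers, Car2 and Epor were called lower in MPP in both genotypes and 0 were called higher, and the part of erythroid RNA in the Slc2a1 difference was not tested. Between genotypes, Slc2a1 had a log2 fold change of -0.27 ± 0.12 in LT-HSC, with an unadjusted p of 0.0384 and an adjusted p of 0.55. Per kilobase, Slc2a3 stood above Slc2a1 in every group, at 15.6 and 9.501 CPM per kb in Ahr-KO MPP and at 30.7 and 16.3 CPM per kb in WT LT-HSC.

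Hexokinases trap glucose in the cell by phosphorylating it. Hk3 showed the largest rise of any member in MPP. It had 216, 267, 329, 252 and 209.9 CPM in Ahr-KO MPP, against 53.4, 95.5, 91.8, 56.1 and 48.1 CPM in Ahr-KO LT-HSC. The WT libraries held 297, 211, 204, 209 and 205 CPM in WT MPP, against 25.6, 31.6, 34.4, 36.7 and 37.9 CPM in WT LT-HSC. The populations were widely apart in both genotypes, with log2 fold changes of 1.89 ± 0.19 in Ahr-KO, adjusted p = 9.99e-07, and 2.76 ± 0.20 in WT, adjusted p = 1.47e-08. Median neutrophil marker sums were 6695 CPM in Ahr-KO MPP, against 536 CPM in Ahr-KO LT-HSC, and 7697 CPM in WT MPP, against 275 CPM in WT LT-HSC. The markers did not move alike: the median log2 fold change of MPP over LT-HSC over the 17 was -0.09 in Ahr-KO and 3.61 in WT. In Ahr-KO those called higher were Ctsg, Mpo and Prtn3, and Mpo and Ctsg are also among the 10 MPP markers. The part of myeloid RNA in the Hk3 difference was not tested. Hk1, the widely expressed hexokinase that sits on mitochondria, moved the other way, with 287, 268, 316, 374 and 451 CPM in Ahr-KO MPP, against 583, 524, 545, 660.4 and 581 CPM in Ahr-KO LT-HSC. Among WT samples the values were 375, 465, 504, 332 and 292 CPM in WT MPP, against 379.5, 545, 605, 535 and 536 CPM in WT LT-HSC. The Ahr-KO groups were apart and the WT groups overlapped, WT LT-HSC 1 being the lowest LT-HSC library. Hk1 had a log2 fold change of -0.77 ± 0.16 in Ahr-KO, adjusted p = 0.00146, and -0.40 ± 0.16 in WT, adjusted p = 0.0774, or -0.50 ± 0.15, adjusted p = 0.0163, without WT LT-HSC 1. Hk2, the insulin-responsive hexokinase, ranged over 24.9 to 48.1 CPM in Ahr-KO MPP, 24.9 to 38.9 CPM in WT MPP, 31.6 to 44.4 CPM in Ahr-KO LT-HSC and 14.7 to 54.2 CPM in WT LT-HSC and was called in neither genotype.

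Hk3 was also the member with the smallest p for loss of Ahr in LT-HSC. All 5 Ahr-KO LT-HSC libraries, at 48.1 to 95.5 CPM, lay above all 5 WT LT-HSC libraries, at 25.6 to 37.9 CPM. The log2 fold change was 1.07 ± 0.22, with an unadjusted p of 0.000509 and an adjusted p of 0.25 in edgeR, and adjusted p-values of 0.00217 in DESeq2 and 0.0315 in limma-voom. The 2 highest Ahr-KO LT-HSC libraries for Hk3 were 2 and 3, those with the high neutrophil and monocyte marker sums. Without them the edgeR log2 fold change was 0.67 ± 0.15, with an unadjusted p of 0.00181 and an adjusted p of 0.987, where 1 of 16629 genes was called. With WT LT-HSC 1 also left out it was 0.58 ± 0.10, with an unadjusted p of 0.000135 and an adjusted p of 0.0581. The other Ahr-KO LT-HSC libraries, at 53.4, 56.1 and 48.1 CPM, also lay above all WT LT-HSC libraries. The part of myeloid RNA in the difference was not tested. In MPP the Ahr-KO and WT ranges of Hk3 overlapped, at a log2 fold change of 0.18 ± 0.14 and adjusted p = 0.849. The effect in MPP minus that in LT-HSC was -0.87 ± 0.27 on the log2 scale, with an unadjusted p of 0.00377 and an adjusted p of 0.553. Hk3 overlaps Unc5a on the opposite strand.

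Set against each other per kilobase, the hexokinases changed places between the populations. Hk3 made up 59.9 ± 7.11% of the summed hexokinase level in Ahr-KO MPP and 54.6 ± 7.02% in WT MPP, against 20.1 ± 6.17% in Ahr-KO LT-HSC and 11.9 ± 1.19% in WT LT-HSC (SD, n = 5 each). The share of Hk1 was 34.7 ± 7.38% in Ahr-KO MPP and 40.9 ± 6.43% in WT MPP, against 73.1 ± 6.58% in Ahr-KO LT-HSC and 80.00 ± 1.84% in WT LT-HSC. No MPP library reached the Hk1 share of any LT-HSC library. Which of the pair leads in MPP depended on the length used: with the longest transcript in place of total exon length, Hk3 had 48.0% and Hk1 47.9% in Ahr-KO MPP, and Hk3 had 42.1% and Hk1 54.6% in WT MPP. These shares are descriptions and were given no test.

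**Figure D4:**
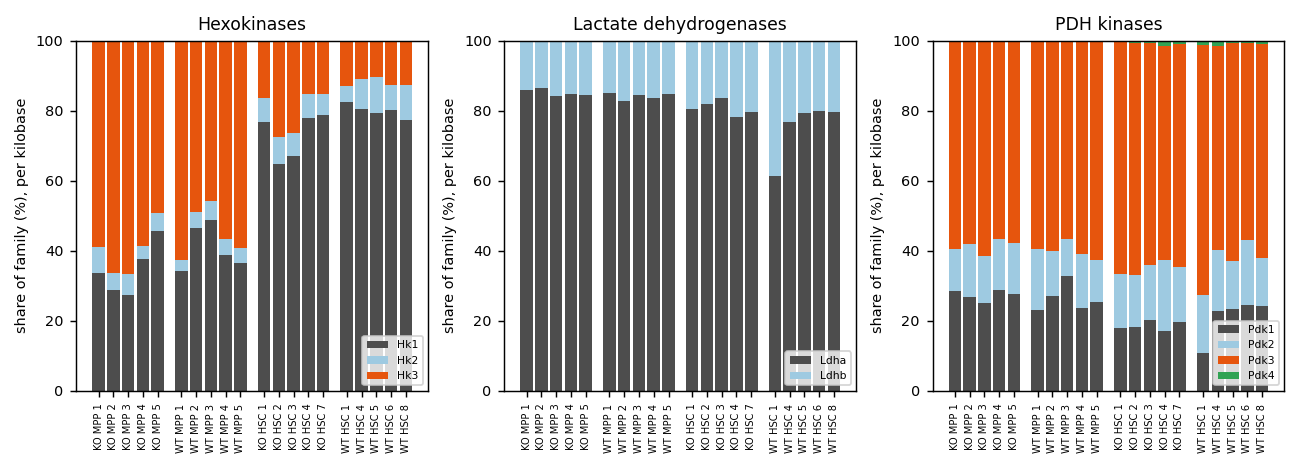
Share of the summed CPM per kb held by each gene within the hexokinases, the lactate dehydrogenases and the pyruvate dehydrogenase kinases, with 1 stacked bar per library and the groups from left to right as Ahr-KO MPP, WT MPP, Ahr-KO LT-HSC and WT LT-HSC. The Hk3 share runs from 45.8 to 66.5% in MPP libraries and from 10.5 to 27.4% in LT-HSC libraries.

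Glucose phosphate isomerase and the phosphofructokinases make the next steps, of which phosphofructokinase is the main point of control. Gpi1, the isomerase, had 384, 408, 518, 353 and 395 CPM in Ahr-KO MPP, against 339.6, 382, 377, 351 and 309 CPM in Ahr-KO LT-HSC. In WT it had 549.5, 410.5, 441, 433 and 424 CPM in WT MPP, against 327, 319.6, 310.4, 331 and 306 CPM in WT LT-HSC. The WT groups were apart and the Ahr-KO groups overlapped. The log2 fold change was 0.23 ± 0.10 in Ahr-KO, adjusted p = 0.108, and 0.50 ± 0.10 in WT, adjusted p = 0.00097. The liver-type subunit Pfkl averaged 277 ± 31.8 CPM in Ahr-KO MPP, 285 ± 43.7 CPM in WT MPP, 344 ± 10.4 CPM in Ahr-KO LT-HSC and 359 ± 63.3 CPM in WT LT-HSC (SD, n = 5 each). In WT it was lower in MPP by a log2 fold change of -0.33 ± 0.12, adjusted p = 0.0464, a call lost without WT LT-HSC 1, which at 470.0 CPM lay above the other 4 (320 to 351 CPM). In Ahr-KO its estimate was -0.31 ± 0.12, adjusted p = 0.0593. The muscle-type subunit Pfkm ranged over 46.7 to 63.2 CPM in Ahr-KO MPP, 51.7 to 71.4 CPM in WT MPP, 62.2 to 84.1 CPM in Ahr-KO LT-HSC and 33.7 to 77.4 CPM in WT LT-HSC, and was called lower in Ahr-KO MPP alone (-0.49 ± 0.17, adjusted p = 0.0456). The platelet-type subunit Pfkp was likewise called in Ahr-KO alone, at -0.29 ± 0.10, adjusted p = 0.0485, with -0.29 ± 0.10 and adjusted p = 0.0527 in WT. Pfkl held most of the summed phosphofructokinase level per kilobase in all groups. Its share was 62.9 ± 1.96% in Ahr-KO MPP, 60.7 ± 4.80% in WT MPP, 61.1 ± 2.65% in Ahr-KO LT-HSC and 63.9 ± 8.36% in WT LT-HSC. With the longest transcript in place of total exon length it was 70.2%, 68.4%, 68.8% and 70.9% in the same order.

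Pfkfb2, Pfkfb3 and Pfkfb4 encode the enzymes that set the level of the phosphofructokinase activator, and edgeR with all libraries called 0 of the 3 between populations or genotypes. Pfkfb3, whose product strongly favours making the activator, ranged over 16.1 to 22.8 CPM in Ahr-KO MPP, 17.2 to 31.6 CPM in WT MPP, 21.7 to 31.03 CPM in Ahr-KO LT-HSC and 16.6 to 25.6 CPM in WT LT-HSC. Its Ahr-KO effect was -0.29 ± 0.17 on the log2 scale in MPP and 0.29 ± 0.15 in LT-HSC, and the difference of the effects was -0.56 ± 0.22, with an unadjusted p of 0.0217 and an adjusted p of 0.711. Pfkfb4 ranged over 16.3 to 23.2 CPM in Ahr-KO MPP, 8.99 to 24.4 CPM in WT MPP, 14.4 to 23.95 CPM in Ahr-KO LT-HSC and 13.2 to 19.4 CPM in WT LT-HSC. Pfkfb2 stayed under 9 CPM in every library and had a log2 fold change of MPP over LT-HSC of -0.57 ± 0.35 in Ahr-KO and -0.52 ± 0.35 in WT.

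Aldolase, triose phosphate isomerase and glyceraldehyde phosphate dehydrogenase carry the triose steps. Aldoc, the aldolase best known from brain, fell most, with 10.2, 8.0, 9.79, 15.6 and 18.5 CPM in Ahr-KO MPP, against 37.6, 31.2, 30.7, 35.96 and 40.5 CPM in Ahr-KO LT-HSC. The WT libraries held 20.9, 14.8, 16.5, 13.9 and 13.9 CPM in WT MPP, against 64.9, 49.8, 38.5, 30.7 and 42.3 CPM in WT LT-HSC. All MPP libraries lay below all LT-HSC libraries of their genotype, and the log2 fold change was -1.5 ± 0.22 in Ahr-KO, adjusted p = 5.69e-05, and -1.5 ± 0.22 in WT, adjusted p = 5.72e-05. Aldoa, the major aldolase, averaged 400.2 ± 54.9 CPM in Ahr-KO MPP, 418 ± 40.6 CPM in WT MPP, 506 ± 25.1 CPM in Ahr-KO LT-HSC and 479 ± 48.2 CPM in WT LT-HSC and was called in Ahr-KO alone (-0.34 ± 0.09, adjusted p = 0.0128). Per kilobase Aldoa exceeded Aldoc in every group, at 108 and 3.80 CPM per kb in Ahr-KO MPP and 129 and 13.9 CPM per kb in WT LT-HSC. Tpi1, the isomerase, differed little between populations, at -0.06 ± 0.07 in Ahr-KO and 0.09 ± 0.07 in WT on the log2 scale, and was not called.

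Gapdh, which links the triose steps to NADH and is often used as a reference gene, had 685, 635, 845, 711 and 776 CPM in Ahr-KO MPP, against 651, 670.4, 686, 680.1 and 596 CPM in Ahr-KO LT-HSC. These groups overlapped, with a log2 fold change of 0.15 ± 0.09 and adjusted p = 0.265. In WT it had 956, 678, 756, 673 and 704 CPM in WT MPP, against 552, 583, 572, 585 and 567 CPM in WT LT-HSC. Those groups were apart, with a log2 fold change of 0.40 ± 0.09 and adjusted p = 0.00421. In LT-HSC every Ahr-KO library lay above every WT library for Gapdh, at a log2 fold change of 0.21 ± 0.06, an unadjusted p of 0.00628 and an adjusted p of 0.46. The adjusted p was 0.0593 in DESeq2 and 0.0294 in limma-voom. Without Ahr-KO LT-HSC 2 and 3 the edgeR log2 fold change was 0.175 ± 0.082, with an unadjusted p of 0.0628 and an adjusted p of 0.999. Gapdh overlaps Iffo1 on the opposite strand.

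In the lower pathway, Pgam1, which moves the phosphate of phosphoglycerate, was higher in MPP in both genotypes, with 388, 395, 503, 356 and 368 CPM in Ahr-KO MPP, against 275, 285, 299.6, 250.3 and 229.6 CPM in Ahr-KO LT-HSC. Among WT samples the values were 421, 376, 399, 372 and 408 CPM in WT MPP, against 298, 223, 232, 263 and 240.1 CPM in WT LT-HSC. The groups did not overlap in either genotype. Its log2 fold change was 0.59 ± 0.10 in Ahr-KO, adjusted p = 0.000286, and 0.65 ± 0.10 in WT, adjusted p = 0.000104. The copies Pgam1-ps1 and Pgam1-ps2 were called higher in MPP as well, and reads shared with them make these levels uncertain. Pgk1, the phosphoglycerate kinase, averaged 251 ± 12.8 CPM in Ahr-KO MPP, 261 ± 21.6 CPM in WT MPP, 222 ± 9.05 CPM in Ahr-KO LT-HSC and 225 ± 19.1 CPM in WT LT-HSC. It was called in WT alone (0.22 ± 0.07, adjusted p = 0.0389), with 0.17 ± 0.07 and adjusted p = 0.0947 in Ahr-KO.

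Eno1, the main enolase, and Pkm, pyruvate kinase, were among the most abundant members and were called in no comparison. Eno1 averaged 890.3 ± 127 CPM in Ahr-KO MPP, 936 ± 55.7 CPM in WT MPP, 964 ± 31.6 CPM in Ahr-KO LT-HSC and 1031 ± 300.2 CPM in WT LT-HSC, and Pkm averaged 909 ± 110.1 CPM in Ahr-KO MPP, 946 ± 35.4 CPM in WT MPP, 911 ± 58.6 CPM in Ahr-KO LT-HSC and 967 ± 129 CPM in WT LT-HSC. Both spreads in WT LT-HSC rest on WT LT-HSC 1, which had 1563 CPM for Eno1 and 1197 CPM for Pkm. Eno2 was scarce, with 2.53, 2.02, 2.91, 2.43 and 1.62 CPM in Ahr-KO MPP, against 1.501, 1.49, 0.915, 0.622 and 0.883 CPM in WT MPP. In LT-HSC it had 3.25, 3.76, 4.56, 8.46 and 3.33 CPM in Ahr-KO LT-HSC, against 1.33, 6.21, 4.33, 5.83 and 4.25 CPM in WT LT-HSC. Every Ahr-KO MPP library lay above every WT MPP library, with a log2 fold change of 1.09 ± 0.34, an unadjusted p of 0.00718 and an adjusted p of 0.601. These are 202 reads summed over Ahr-KO MPP and 96 over WT MPP. MPP over LT-HSC, Eno2 had -1.02 ± 0.37 in Ahr-KO, adjusted p = 0.0501, and -2.02 ± 0.38 in WT, adjusted p = 0.000738. Eno3, the muscle enolase, ranged over 7.06 to 12.8 CPM in Ahr-KO MPP, 3.89 to 10.9 CPM in WT MPP, 5.67 to 10.8 CPM in Ahr-KO LT-HSC and 5.76 to 10.5 CPM in WT LT-HSC and was not called. Eno1 held 96.5 ± 0.888% of the enolase level per kilobase in Ahr-KO MPP and 96.9 ± 0.861% in WT LT-HSC.

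Lactate dehydrogenase is a tetramer of A and B subunits, and the B subunit, from Ldhb, favours the turn of lactate back to pyruvate. Ldhb was lower in MPP in both genotypes, with 74.8, 74.9, 101, 90.6 and 91.1 CPM in Ahr-KO MPP, against 138, 122, 109, 153 and 144 CPM in Ahr-KO LT-HSC. In WT it had 97.4, 97.3, 84.7, 84.6 and 93.5 CPM in WT MPP, against 315, 147, 138, 136 and 132 CPM in WT LT-HSC. The populations were apart in both genotypes, and WT LT-HSC 1 stood far above the rest. The log2 fold change was -0.62 ± 0.19 in Ahr-KO, adjusted p = 0.0237, and -0.92 ± 0.19 in WT, adjusted p = 0.00168, or -0.59 ± 0.10, adjusted p = 0.000188, without WT LT-HSC 1. Ldha differed little, with 973, 1007, 1139, 1066 and 1056 CPM in Ahr-KO MPP, against 1211, 1176, 1188, 1159 and 1181 CPM in Ahr-KO LT-HSC. The WT libraries held 1175, 980.1, 979, 907 and 1094 CPM in WT MPP, against 1049.8, 1026, 1112, 1147 and 1098 CPM in WT LT-HSC. The Ahr-KO groups were apart and the WT groups overlapped, but neither difference was called (-0.17 ± 0.07, adjusted p = 0.082, in Ahr-KO and -0.08 ± 0.07, adjusted p = 0.462, in WT). In LT-HSC the lowest Ahr-KO value of Ldha exceeded the highest WT value, at 0.14 ± 0.06 on the log2 scale, with an unadjusted p of 0.0391 and an adjusted p of 0.55. Ldhb made up 14.8 ± 0.957% of the lactate dehydrogenase level per kilobase in Ahr-KO MPP and 15.9 ± 0.990% in WT MPP, against 19.2 ± 2.13% in Ahr-KO LT-HSC and 24.6 ± 8.04% in WT LT-HSC.

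Slc16a1 and Slc16a3 encode the lactate carriers MCT1 and MCT4, of which MCT4 is tied to lactate export. Slc16a1 ranged over 122 to 164 CPM in Ahr-KO MPP, 125 to 140.0 CPM in WT MPP, 120.0 to 188 CPM in Ahr-KO LT-HSC and 68.6 to 141 CPM in WT LT-HSC, and Slc16a3 over 6.92 to 15.9 CPM in Ahr-KO MPP, 8.17 to 13.4 CPM in WT MPP, 7.15 to 14.5 CPM in Ahr-KO LT-HSC and 6.37 to 8.59 CPM in WT LT-HSC. Neither was called between populations. In LT-HSC their Ahr-KO estimates were positive, at 0.44 ± 0.20 for Slc16a1 (adjusted p = 0.562) and 0.53 ± 0.23 for Slc16a3 (adjusted p = 0.55). The highest Ahr-KO LT-HSC libraries for both were 2 and 3, the libraries with high myeloid marker sums. Without those 2 libraries the estimates were 0.24, adjusted p = 0.999, for Slc16a1 and 0.12, adjusted p = 0.999, for Slc16a3.

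Among the pyruvate dehydrogenase kinases, Pdk4 had the lowest ratio of MPP to LT-HSC of all members. It had 1 read in each of 2 Ahr-KO MPP libraries and none in the other 3, against 16, 41, 41, 119 and 47 reads in Ahr-KO LT-HSC. In WT there was 1 read in 1 WT MPP library and none in the other 4, against 91, 124, 35, 34 and 77 reads in WT LT-HSC. Every LT-HSC library thus held Pdk4 reads, and most MPP libraries held none. The ratio of MPP to LT-HSC, scaled by library size, was 0.00839 in Ahr-KO (95% interval 0.00101 to 0.0306) and 0.00317 in WT (7.99e-05 to 0.0177). These are exact intervals on summed reads and cover counting error only. The edgeR adjusted p was 4.15e-06 in Ahr-KO and 1.54e-06 in WT, for a gene that passed the count filter only through the LT-HSC libraries and so had to differ.

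Pdk3 was the most abundant kinase of the 4 per kilobase and was lower in MPP in both genotypes. It had 111, 101, 119, 114 and 129 CPM in Ahr-KO MPP, against 155, 148, 144, 150.5 and 163 CPM in Ahr-KO LT-HSC. Among WT samples the values were 153, 113, 113, 125 and 112 CPM in WT MPP, against 202, 155, 157, 133 and 153 CPM in WT LT-HSC. The Ahr-KO groups were apart and the WT groups overlapped. Its log2 fold change was -0.41 ± 0.11 in Ahr-KO, adjusted p = 0.00952, and -0.38 ± 0.11 in WT, adjusted p = 0.0156. Pdk2, the kinase found in most tissues, averaged 33.7 ± 4.85 CPM in Ahr-KO MPP, 35.4 ± 12.2 CPM in WT MPP, 48.3 ± 8.45 CPM in Ahr-KO LT-HSC and 51.00 ± 7.68 CPM in WT LT-HSC. It was called lower in both genotypes near the threshold, at -0.52 ± 0.19, adjusted p = 0.0499, in Ahr-KO and -0.53 ± 0.19, adjusted p = 0.047, in WT, and without WT LT-HSC 1 the WT value was -0.48 ± 0.19, adjusted p = 0.0643.

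Pdk1, a known HIF target, was not called between populations, at 0.27 ± 0.15, adjusted p = 0.225, in Ahr-KO and 0.01 ± 0.15, adjusted p = 0.983, in WT. In LT-HSC it had 128, 125, 140.3, 128 and 153 CPM in Ahr-KO LT-HSC, against 93.1, 184, 179, 176 and 186 CPM in WT LT-HSC. All 5 Ahr-KO libraries lay below 4 of the WT libraries and above WT LT-HSC 1. With all 10 libraries the log2 fold change of Ahr-KO over WT was -0.26 ± 0.17, adjusted p = 0.709. Without WT LT-HSC 1 it was -0.41, adjusted p = 0.0206, in a fit that called 203 of 16338 genes (1.24%). With Ahr-KO LT-HSC 2 and 3 also left out it was -0.41 ± 0.08, adjusted p = 0.065. In MPP, with all 10 libraries, the log2 fold change of Ahr-KO over WT was -0.01 ± 0.11, adjusted p = 0.988. The difference of effects was 0.26 ± 0.22, adjusted p = 0.898. Pdha1 and Pdhb, the subunits of the enzyme that these kinases switch off, were not called between populations: Pdha1 averaged 108 ± 13.1 CPM in Ahr-KO MPP, 121 ± 15.7 CPM in WT MPP, 109.6 ± 5.73 CPM in Ahr-KO LT-HSC and 121 ± 12.5 CPM in WT LT-HSC, and Pdhb averaged 128 ± 7.67 CPM in Ahr-KO MPP, 143 ± 13.7 CPM in WT MPP, 111 ± 5.55 CPM in Ahr-KO LT-HSC and 131 ± 32.1 CPM in WT LT-HSC. WT LT-HSC 1 was the highest library of its group for both.

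**Figure D5:**
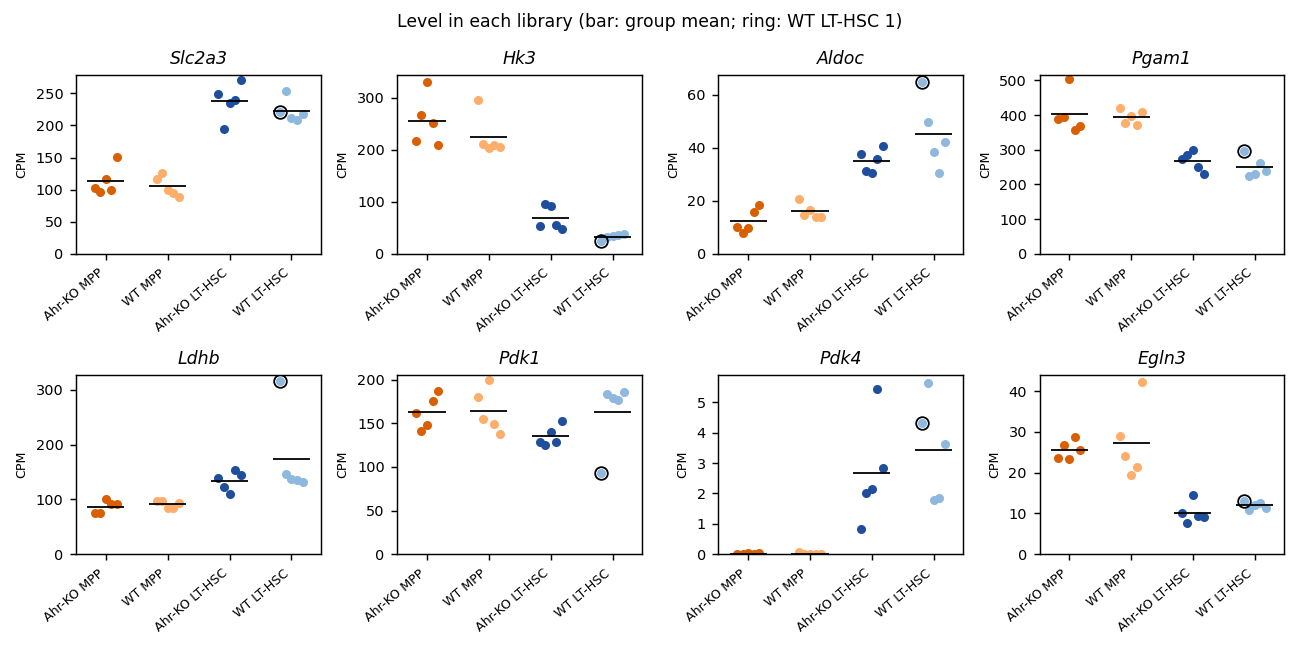
CPM of Slc2a3, Hk3, Aldoc, Pgam1, Ldhb, Pdk1, Pdk4 and Egln3 in each of the 20 libraries, with groups from left to right as Ahr-KO MPP, WT MPP, Ahr-KO LT-HSC and WT LT-HSC; lines mark group means and a ring marks WT LT-HSC 1. Slc2a3, Aldoc, Ldhb and Pdk4 are lower in all MPP libraries than in any LT-HSC library of the same genotype, and Hk3, Pgam1 and Egln3 are higher.

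Among hypoxia genes, Egln3, a prolyl hydroxylase that marks HIF alpha subunits for breakdown and is itself a HIF target, was higher in MPP in both genotypes. It had 23.5, 26.8, 23.5, 28.8 and 25.5 CPM in Ahr-KO MPP, against 10.2, 7.67, 14.5, 9.29 and 9.03 CPM in Ahr-KO LT-HSC. In WT it had 29.1, 24.2, 19.4, 21.4 and 42.3 CPM in WT MPP, against 13.2, 10.9, 12.1, 12.5 and 11.4 CPM in WT LT-HSC. The groups were apart in both genotypes, and WT MPP 5 was the highest library. The log2 fold change was 1.34 ± 0.19 in Ahr-KO, adjusted p = 4.18e-05, and 1.18 ± 0.19 in WT, adjusted p = 0.000149. Egln1, the main hydroxylase of HIF in most cells, spread widely within groups, over 13.6 to 37.02 CPM in Ahr-KO MPP, 9.02 to 36.7 CPM in WT MPP, 13.9 to 34.7 CPM in Ahr-KO LT-HSC and 12.3 to 38.9 CPM in WT LT-HSC, and was called in no comparison.

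Hif1a, the alpha subunit present in most cells, had 80.6, 77.8, 84.02, 76.5 and 91.2 CPM in Ahr-KO MPP, against 113, 113, 96.9, 97.05 and 86.7 CPM in Ahr-KO LT-HSC. The WT libraries held 91.4, 92.96, 100.1, 99.2 and 103 CPM in WT MPP, against 93.1, 113, 121, 94.6 and 109 CPM in WT LT-HSC. It was lower in Ahr-KO MPP than in Ahr-KO LT-HSC, at -0.30 ± 0.09, adjusted p = 0.022, with -0.12 ± 0.09, adjusted p = 0.381, in WT. Without Ahr-KO LT-HSC 2 and 3 the Ahr-KO value was -0.30 ± 0.11, adjusted p = 0.0673, and with WT LT-HSC 1 also left out it was -0.27 ± 0.10, adjusted p = 0.0446. Every Ahr-KO MPP library lay below every WT MPP library for Hif1a, at a log2 fold change of -0.25 ± 0.08, with an unadjusted p of 0.0105 and an adjusted p of 0.614. In LT-HSC the Ahr-KO and WT ranges overlapped (-0.05 ± 0.11, adjusted p = 0.932).

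Epas1 was near the limit of counting. It had 27 reads over the 5 Ahr-KO MPP libraries and 22 over the WT MPP libraries, against 116 over Ahr-KO LT-HSC and 124 over WT LT-HSC, where WT LT-HSC 1 had 0. It was called lower in MPP in WT alone (adjusted p = 0.0424), with adjusted p = 0.0925 in Ahr-KO. Epas1 too passed the count filter through LT-HSC and would not have through MPP alone, so these p-values do not stand as support for the difference. The ratio of MPP to LT-HSC was 0.258 in Ahr-KO (95% interval 0.163 to 0.395) and 0.203 in WT (0.123 to 0.321), for counting error only.

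Vegfa, the vascular growth factor and a HIF target, had 23.5, 13.3, 23.8, 15.6 and 17.97 CPM in Ahr-KO MPP, against 13.7, 12.1, 14.1, 15.1 and 11.8 CPM in Ahr-KO LT-HSC. The WT libraries held 18.3, 21.1, 33.6, 21.8 and 14.3 CPM in WT MPP, against 7.71, 12.7, 13.8, 13.5 and 15.8 CPM in WT LT-HSC. Its log2 fold change was 0.50 ± 0.22, adjusted p = 0.113, in Ahr-KO and 0.78 ± 0.22, adjusted p = 0.0139, in WT, where it was called higher in MPP although the groups overlapped. Bnip3, which directs mitochondria to degradation in hypoxia, ranged over 24.5 to 26.8 CPM in Ahr-KO MPP, 24.00 to 27.95 CPM in WT MPP, 19.5 to 30.8 CPM in Ahr-KO LT-HSC and 24.9 to 55.4 CPM in WT LT-HSC, and was not called.

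Genes around the members were followed in 6 further lists, of which 1 holds close copies of members. For Ahr-KO against WT, edgeR called 0 of 108 listed genes tested in MPP and 0 of 104 in LT-HSC, and 0 of 110 for the difference of the effects. An unadjusted p under 0.05 was found for 9 in MPP, beside 6.62% of all genes, and for 11 in LT-HSC, beside 8.85%. For the difference it was found for 7, beside 6.46%. DESeq2 and limma-voom each called 0 in MPP and 2 in LT-HSC, Jmjd6 and Mif, and 1 for the difference, Jmjd6, genes named after their values were seen. Over all genes DESeq2 called 50 of 16077 in MPP, 149 of 16065 in LT-HSC and 51 of 17416 for the difference. For limma-voom these counts were 8, 264 and 17. Between populations, the list counts that follow are to be read against 12.5% of all genes higher and 10.7% lower in MPP in Ahr-KO, and 11.0% higher and 11.3% lower in WT. Counts with libraries left out have other backgrounds. Without WT LT-HSC 1, 2704 of 17788 genes were higher and 2619 lower in WT. Without Ahr-KO LT-HSC 2 and 3, 1798 of 18200 genes were higher and 1643 lower in Ahr-KO. Of 28 further glycolysis and pyruvate genes tested, 4 were higher and 4 lower in MPP in Ahr-KO, and 3 were higher and 5 lower in WT. The count filter passed 27 genes of this list in MPP alone and 27 in LT-HSC alone. Txnip, whose product holds back glucose uptake through GLUT1 and is itself induced by glucose, had 244, 284, 332, 345 and 349 CPM in Ahr-KO MPP, against 709, 698, 742, 843 and 831 CPM in Ahr-KO LT-HSC. Among WT samples the values were 357, 239, 294, 296 and 242 CPM in WT MPP, against 145, 788, 552, 858 and 710.0 CPM in WT LT-HSC. MPP lay below LT-HSC except for WT LT-HSC 1, the lowest of all libraries. Its log2 fold change was -1.30 ± 0.29 in Ahr-KO, adjusted p = 0.0025, and -1.09 ± 0.29 in WT, adjusted p = 0.00884, or -1.35 ± 0.13 without WT LT-HSC 1. Its relative Arrdc4, controlled by the same glucose-sensing factors, averaged 41.2 ± 10.2 CPM in Ahr-KO MPP, against 111 ± 18.99 CPM in Ahr-KO LT-HSC, and 32.8 ± 6.83 CPM in WT MPP, against 90.2 ± 14.1 CPM in WT LT-HSC. The Arrdc4 log2 fold change was -1.43 ± 0.18, adjusted p = 1.06e-05, in Ahr-KO and -1.46 ± 0.18, adjusted p = 8.97e-06, in WT. Tigar, which lowers the phosphofructokinase activator, averaged 10.1 ± 1.24 CPM in Ahr-KO MPP, against 4.09 ± 0.810 CPM in Ahr-KO LT-HSC, and 8.13 ± 0.490 CPM in WT MPP, against 3.72 ± 1.11 CPM in WT LT-HSC, and was called higher in both (1.31 ± 0.20, adjusted p = 8.04e-05, and 1.13 ± 0.20, adjusted p = 0.000366). Adpgk, a glucokinase that uses ADP, was likewise higher in MPP (0.52 ± 0.11, adjusted p = 0.00141, in Ahr-KO and 0.72 ± 0.11, adjusted p = 7.16e-05, in WT).

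Of 10 pentose phosphate pathway genes, 3 were higher and 0 lower in MPP in Ahr-KO, and 4 were higher and 0 lower in WT. Pgls, the lactonase of the oxidative branch, averaged 129.5 ± 20.7 CPM in Ahr-KO MPP, against 86.4 ± 9.03 CPM in Ahr-KO LT-HSC, with a log2 fold change of 0.58 ± 0.12, adjusted p = 0.00142. In WT it averaged 120.3 ± 16.7 CPM in WT MPP, against 75.4 ± 7.79 CPM in WT LT-HSC, with 0.67 ± 0.12, adjusted p = 0.000427. Without WT LT-HSC 1, 3 genes of this list were higher and 1 lower in WT. Of 20 citrate cycle genes, 2 were higher and 1 lower in Ahr-KO (1 and 1 without Ahr-KO LT-HSC 2 and 3), and 5 were higher and 1 lower in WT, or 10 and 1 without WT LT-HSC 1. Idh2, the mitochondrial isocitrate dehydrogenase that makes NADPH, was higher in MPP, at 0.46 ± 0.09, adjusted p = 0.000539, in Ahr-KO and 0.46 ± 0.09, adjusted p = 0.00059, in WT. Aco1, the cytosolic aconitase that also binds iron-responsive RNA, was lower in Ahr-KO MPP (-0.35 ± 0.11, adjusted p = 0.0239), and was called in WT as well.

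Of 15 HIF regulators tested, 0 were higher and 2 lower in MPP in each genotype, or 1 lower in Ahr-KO without Ahr-KO LT-HSC 2 and 3 and 5 lower in WT without WT LT-HSC 1. The 2 were Cited2, which competes with HIF for a coactivator and is known to be needed by stem cells (-0.67 ± 0.16, adjusted p = 0.00523, in Ahr-KO and -0.85 ± 0.16, adjusted p = 0.000802, in WT), and Hif3a, an alpha subunit that can inhibit the others (-1.75 ± 0.60, adjusted p = 0.041, in Ahr-KO and -1.71 ± 0.60, adjusted p = 0.046, in WT). Of 30 other hypoxia-responsive genes, 6 were higher and 5 lower in Ahr-KO, and 4 were higher and 4 lower in WT. The count filter passed 26 genes of this list in LT-HSC alone and 29 in MPP alone. Some were thus tested through 1 population only, and the filter may partly have fixed their calls. Bhlhe40, a repressor induced by hypoxia, was lower in MPP in both genotypes (-1.41 ± 0.29, adjusted p = 0.00152, in Ahr-KO and -1.37 ± 0.29, adjusted p = 0.00212, in WT). P4hb, a subunit of the collagen prolyl hydroxylase, was called higher in both, at 0.72 ± 0.11, adjusted p = 5.87e-05, in WT. Of 7 copies and testis isozymes of members tested, 3 were higher and 2 lower in Ahr-KO MPP, and 4 were higher and 0 lower in WT MPP. The filter passed 6 of these copies in LT-HSC alone and 7 in MPP alone, so the same limit holds. Median log2 fold changes of MPP over LT-HSC were -0.10 in Ahr-KO and -0.02 in WT for the further glycolysis genes, 0.20 and 0.44 for the pentose phosphate genes, 0.09 and 0.11 for the citrate cycle, -0.14 and -0.18 for the HIF regulators and 0.08 and 0.00 for the hypoxia-responsive genes, beside 0.01 over all genes in each genotype.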

How the data were processed

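Polyadenylated RNA of sorted mouse bone marrow cells was sequenced from 20 libraries, 5 in each of 4 groups, after a TruSeq library preparation per the labels' protocols. Those protocols also speak of dendritic cells and of 3 samples per group, which differs from the libraries given. Per the submitters' processing notes, the tools included Trimmomatic 0.36, STAR 2.5.2b, Subread 1.5.0p3 and DESeq2 1.12.4, with genome build GRCm38.p5. The deposited values are raw read counts per gene symbol, and the authors gave 1 table for each population. Groups were taken from the sample titles.

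Counts were tested with the quasi-likelihood test of edgeR 4.0.16 after TMM scaling and removal of weakly counted genes, with p-values adjusted by the Benjamini-Hochberg method over all genes tested and a threshold of 0.05. Loss of Ahr was tested on the 10 libraries of each population alone. The population differences of each genotype, and the difference of the Ahr-KO effects, came from a fit of all 20 libraries, so those comparisons share libraries and 1 estimate of the spread. CPM use TMM-scaled totals of all 20 libraries, and levels per kilobase use the summed exon length of GENCODE M21. A standard error is the size of the log2 fold change over the root of its F statistic. Alternatives were DESeq2 1.42.0, limma 3.58.1 (voom with library weights), other scaling and filters, a replicate block and the omission of libraries; omitting Ahr-KO LT-HSC 2 and 3 and WT LT-HSC 1 together was chosen after seeing the data. The fits were also run on simulated counts. These held no outlying library and left out weakly counted genes, so they say nothing about the limits set by either. Same-numbered libraries did not deviate together in all pairs, so the numbers were not taken to pair them.

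The members and all gene lists were chosen with earlier results of these data known. Genes were named by rule: every called member, the member with the smallest p of each role in the Ahr-KO comparisons, and up to 3 called genes per list and comparison. Txnip lies outside that rule and was chosen after its values were seen. Depth limits precision for Pdk4, Epas1 and Eno2, whose counts are given.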

Additional observations from a re-analysis of the deposited data

Results flagged for a closer look

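In 16 of 152 groups of 5 libraries tested, the highest or lowest library of a member stood far from the other 4, by Dixon's criterion at its 95% critical value. Chance flags about 1 in 20 groups, which would be 7.6 of 152. Of the 16, 9 were WT LT-HSC 1, the library whose marker sums and correlations also stood apart. It was high for Pfkl (470.0 CPM, against 319.9 to 351 CPM in the other 4 WT LT-HSC libraries), Aldoa (563, against 447 to 474 CPM), Eno1 (1563, against 835 to 945 CPM), Pkm (1197, against 891 to 920.1 CPM), Ldhb (315, against 132 to 147 CPM), Pdhb (188, against 111 to 121 CPM) and Bnip3 (55.4, against 24.9 to 29.2 CPM). It was low for Pfkm (33.7, against 72.1 to 77.4 CPM) and Pdk1 (93.1, against 176 to 186 CPM). Across the 38 members, the log ratio of WT LT-HSC 1 to the median of the other 4 libraries ran against transcript length, with a Spearman rho of -0.60, given as a description over genes of 1 library.

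The other 7 were spread over 5 libraries. Slc2a3 had 253 CPM in WT LT-HSC 4, against 208 to 220.3 CPM in the rest of its group. WT MPP 1 was high for Hk3 (297, against 204 to 211 CPM) and for Gpi1 (549.5, against 410.5 to 441 CPM), and held the only Pdk4 read of its group (0.0682 CPM, with 0 in the other 4). Pfkfb3 had 31 CPM in Ahr-KO LT-HSC 7, against 21.7 to 24.3 CPM. Eno2 had 8.46 CPM in Ahr-KO LT-HSC 4, against 3.25 to 4.56 CPM. Pgam1 had 503 CPM in Ahr-KO MPP 3, against 356 to 395 CPM.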

How the results depend on the processing

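For loss of Ahr, counts of calls depended on the tool. In LT-HSC edgeR called 1 gene, against 3 with DESeq2 size factors, 3 with genes of at least 5 CPM in 5 libraries, 4 with no filter, 14 with all 20 libraries in 1 fit, 32 with Ahr-KO LT-HSC 2 and 3 and WT LT-HSC 1 left out, 149 with DESeq2 and 264 with limma-voom. Leaving out single libraries gave 0 to 203, the highest without WT LT-HSC 1. Members called in LT-HSC were 0 in edgeR, 1 with all 20 libraries, 1 with DESeq2, 4 with limma-voom and 0 to 1 with single libraries left out. In MPP edgeR called 5 genes, against 3 with DESeq2 size factors, 8 with limma-voom and 50 with DESeq2, and 0 to 4 with single libraries left out, while members stayed at 0. The difference of the effects gave 0 genes, but 17 with limma-voom and 51 with DESeq2, none a member. Between populations, limma-voom called 6505 genes in WT against 3876 in edgeR. Leaving out single libraries gave 11 to 17 members in Ahr-KO and 13 to 20 in WT. The 11 stand beside 3455 of 17803 genes and the 17 beside 4112 of 17776. The 13, found with WT MPP 2 or WT MPP 5 left out, stand beside 3490 of 17779 and 3190 of 17774 genes. The 20 stand beside 29.9% of all genes. The cause of these differences was not tested.

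Replicate numbers were shared by few libraries. A fit with the replicate block on shared numbers gave 0 genes called for loss of Ahr in LT-HSC (2 pairs) and 0 in MPP (5 pairs). For WT MPP against WT LT-HSC (3 pairs, WT LT-HSC 1 among them) it called 113 of 16230 genes (0.696%) and 1 of 37 members (2.7%). In Ahr-KO (4 pairs) it called 18 members beside 28.7% of 16313 genes. Outside MPP it uses fewer libraries. Correlations of same-numbered deviations lay between -0.315 and 0.278, and libraries correlated best with their own number in 3 of 4 Ahr-KO pairs and 1 of 3 WT pairs. Among the members named in each comparison, the direction turned in 2 cases, neither called: Bnip3 in LT-HSC, -0.32, became 0.09 with the 3 libraries left out together, and Slc2a1 in the difference of effects, 0.16, became -0.10 under the replicate block. Of all 38 members in LT-HSC, 8 uncalled estimates also turned without WT LT-HSC 1, Eno1 for instance, -0.08, to 0.12, adjusted p = 0.218. With the 3 libraries left out together, 12 of the 38 turned in LT-HSC and 11 in the difference of effects. In that difference 9 turned without WT LT-HSC 1. Of 285 alternative values for named members in WT, 51 lost the call, and of 269 in Ahr-KO, 29 did.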
